A study of Mus musculus with 12 samples.

Results

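The mitosis and G2/M genes described here are 55 genes that a dividing cell uses to enter, carry out and leave mitosis, chosen as a list of gene symbols and ordered by what their products do. Each gene was represented by its brightest transcript cluster (called a probe below), and 53 of the 55 were found among 22206 probes, 1 probe per gene. Ccnb1 and Foxm1 were not analysed here. The cells were S100β-v-erbB/p53-/- TSC1 cells of mouse strain FVB-NJ, in which the S100β promoter drives v-erbB, an active relative of the epidermal growth factor receptor, and p53 is deleted. All groups share both changes, so none of them is a p53-proficient control. Cultures in DMEM F-12 with B27 were kept for 16 h in hypoxia with brefeldin A (BFA), in hypoxia with EHT-1864, in hypoxia with the solvent DMSO, or in normoxia with DMSO, and each group holds 3 Clarion S arrays, 12 in all. BFA blocks vesicle transport out of the endoplasmic reticulum, and EHT-1864 inhibits Rac GTPases. EHT-1864 was used at 1 µM. For BFA the protocol states 1 µM and the series title 0.1 µM, which was not settled. The design text names independent cultures but not which array holds which, so the p-values measure the spread between arrays, which may be partly technical.

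Mitosis is driven by Cdk1 bound to A- and B-type cyclins, with Plk1 and the Aurora kinases acting beside it. The spindle checkpoint holds the anaphase-promoting complex (APC/C) in check until every chromosome is attached to the spindle; then Cdc20 turns the complex on, and securin and cyclin B are destroyed. Many of these genes are transcribed together in G2 by the MuvB complex with B-Myb (Mybl2) and FoxM1, and MuvB reaches them through a promoter element called the CHR, often near CCAAT boxes bound by NF-Y. In gliomas, as in other tumours, their messages are widely used as a readout of proliferation.

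The promoters of the genes were therefore read from RefSeq (GRCm38.p6), as windows of 300 bases with 250 before and 50 from the annotated start on. Windows were found for 45 of the 53 genes, 3 of them with 2 windows, which gave 48. The CHR was searched as TTTGAA or TTCGAA, the CCAAT box as CCAAT and an E2F site as TTCCCGC or TTTGGCG, all on both strands. A CHR stood in 37 of 48 windows (77.1%), against 19.2% of all 32851 windows of the same length. Within 50 bases of the start it stood in 33 windows (68.8%), against 5.3% of all. A CCAAT box was present in 34 (70.8%), against 37.4% of all, and at least 2 boxes in 22 (45.8%), against 11.7%. Both a CHR near the start and a CCAAT box were found in 29 windows (60.4%), against 2.2% of all. The E2F letters were in 4 windows (8.3%), against 6.0%. A match describes letters only and is not evidence of binding. The windows of 4 genes are printed 5′ to 3′ on the gene's strand, with CHR and CCAAT matches of either strand in capitals: B-type cyclin Ccnb2 (chr9:70421505-70421804, minus strand), the APC/C activator Cdc20 (chr4:118437294-118437593, minus), the spindle motor Kif11 (chr19:37376132-37376431, plus), and the checkpoint gene Mad2l1 (chr6:66534971-66535270, plus), whose window holds none of the 3 motifs. They were picked with the results known, to show windows with and without matches. Whether a motif goes with a response was not tested. Of the 9 genes whose window holds neither a CHR nor a CCAAT box, 8 were called lower with BFA than with hypoxia DMSO. These were Birc5, Kif18a, Melk, Mybl2, Ncaph, Nuf2, Nusap1 and Pttg1, and Mad2l1 alone did not pass. In the same comparison 46 of all 53 genes and 24.6% of all probes were called lower.
Ccnb2: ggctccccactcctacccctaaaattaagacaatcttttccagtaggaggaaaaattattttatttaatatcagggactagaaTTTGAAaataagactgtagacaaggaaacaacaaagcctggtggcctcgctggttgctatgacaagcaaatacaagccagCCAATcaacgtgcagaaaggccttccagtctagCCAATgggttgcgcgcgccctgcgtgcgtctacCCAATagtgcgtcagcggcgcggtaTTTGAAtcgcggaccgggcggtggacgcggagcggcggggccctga
Cdc20: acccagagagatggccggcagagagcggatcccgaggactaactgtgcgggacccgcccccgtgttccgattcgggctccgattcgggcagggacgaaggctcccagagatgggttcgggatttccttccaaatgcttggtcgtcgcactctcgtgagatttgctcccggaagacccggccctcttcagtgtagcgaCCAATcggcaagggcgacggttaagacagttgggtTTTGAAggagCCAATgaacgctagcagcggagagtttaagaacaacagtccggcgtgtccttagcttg
Kif11: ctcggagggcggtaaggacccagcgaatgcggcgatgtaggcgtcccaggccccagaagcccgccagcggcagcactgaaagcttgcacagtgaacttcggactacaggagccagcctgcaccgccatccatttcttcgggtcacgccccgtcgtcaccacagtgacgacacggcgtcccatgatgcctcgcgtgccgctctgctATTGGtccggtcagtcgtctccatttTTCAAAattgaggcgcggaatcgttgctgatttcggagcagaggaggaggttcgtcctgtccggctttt
Mad2l1: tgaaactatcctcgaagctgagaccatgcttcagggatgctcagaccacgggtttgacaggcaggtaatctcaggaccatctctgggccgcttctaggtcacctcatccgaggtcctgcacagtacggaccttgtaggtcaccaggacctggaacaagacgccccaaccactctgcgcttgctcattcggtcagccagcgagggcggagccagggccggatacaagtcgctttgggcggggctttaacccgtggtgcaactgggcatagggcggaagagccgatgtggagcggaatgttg

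**Figure D1:**
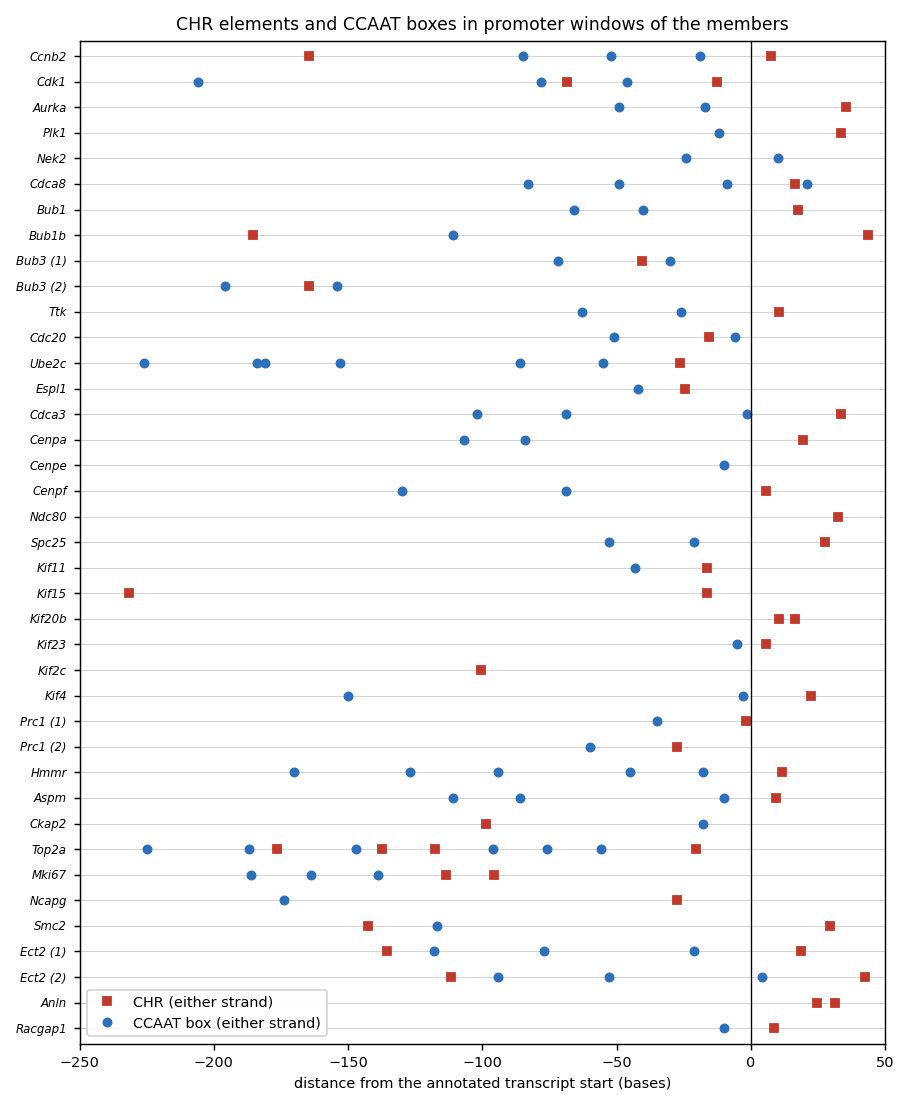
Positions of CHR elements (red squares) and CCAAT boxes (blue circles), on either strand, in the 39 promoter windows with a match to one of them. The x axis is the distance in bases from the annotated start (vertical line), and genes with 2 windows have 2 rows. CHR elements gather within 50 bases of the start, in 33 of all 48 windows, with CCAAT boxes mostly upstream of them.

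Signals are log2 values on an array, and levels of different genes are not compared. A probe was called different where limma, fitted over all 12 arrays and 22206 probes, gave a Benjamini-Hochberg adjusted p under 0.05; "±" after a log2 difference is its standard error. The floor of an array is the 95th percentile of its negative control probes. It averaged 6.49 on BFA arrays, 6.01 on EHT-1864 arrays, 5.61 on hypoxia DMSO arrays and 5.61 on normoxia arrays, and 65.2% of probes lay below it with BFA, 57.6% with EHT-1864, 51.7% with hypoxia DMSO and 52.1% in normoxia. Hybridization controls, which are spiked in, averaged 10.93 ± 0.12 on BFA, 10.25 ± 0.07 on EHT-1864, 9.76 ± 0.06 on hypoxia DMSO and 9.85 ± 0.06 on normoxia arrays (SD, n = 3 arrays each). Background and spiked controls thus moved with the compounds, BFA most, and their part in the results below was not tested. The cells carried the oligodendrocyte lineage signal of this model: 5 of 7 measured markers, Olig1, Olig2, Sox10, Cspg4 and S100b, were above the floor on all 12 arrays, while all 6 microglial and all 5 endothelial markers were below it on every array. Of the other lists, 4 of 6 astrocyte markers (Gfap and Aqp4 among them), 3 of 6 neuronal and 5 of 6 fibroblast and pericyte markers were below it on every array. The rest of these lists were not: Tubb3, Map2 and Col1a1 were above it on all 12 arrays, Slc1a3 on 11, Syt1 on 8 and Slc1a2 on 3. The lineage markers themselves moved: Olig2 averaged 8.10 on BFA arrays, 9.08 on EHT-1864 arrays, 11.44 on hypoxia DMSO arrays and 11.63 on normoxia arrays. In such bulk RNA, fewer dividing cells and less of these messages per cell cannot be told apart.

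Averaged over the 53 genes, the log2 signal was 7.50, 7.73 and 7.56 on the BFA arrays, 8.46, 8.56 and 8.41 on the EHT-1864 arrays, 8.55, 8.50 and 8.54 on the hypoxia DMSO arrays and 8.89, 8.82 and 8.84 on the normoxia arrays. The BFA arrays lay below all others and the normoxia arrays above all others, while EHT-1864 and hypoxia DMSO overlapped. All 53 genes were above the floor on every array without BFA. On the BFA arrays 38, 49 and 45 of them were, and 3 genes, Spc25, Kif15 and Ncaph, were not above it on any BFA array.

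**Figure D2:**
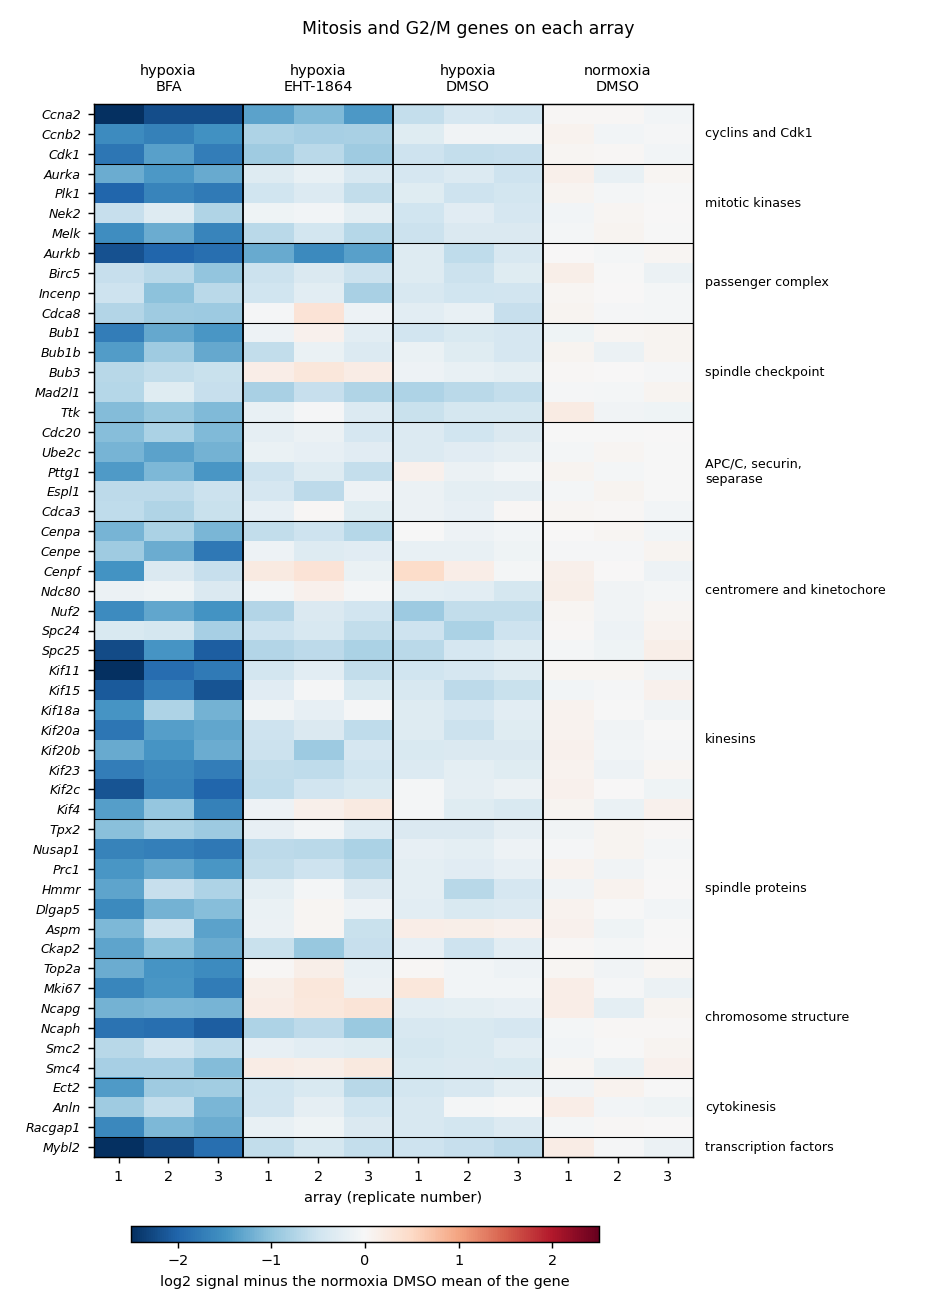
Log2 signal of each of the 53 genes (rows, grouped by role) on each array (columns, grouped by condition), minus the gene's mean on the normoxia arrays; blue is below and red above that mean. The BFA columns are blue for nearly every gene, by more than 2 log2 units for Ccna2, while Mad2l1, Ndc80, Spc24 and Nek2 are pale there.

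Messages of the mitotic programme were broadly lower with BFA. Of 53 genes, 46 fell against hypoxia DMSO, 0 rose by limma, and 7 did not pass the test (47 had an unadjusted p under 0.05); the background was 24.6% of all probes lower and 26.1% higher. The median difference was -0.94, against 0.11 for all probes. It stayed at -0.94 with the 3 genes below the floor on every BFA array set to the bounds given below. At least 2-fold lower were 22 genes, with those 3 genes counted by their bounds. The 12 genes with 1 or 2 BFA arrays above the floor were counted at their fitted values, which are uncertain in size. Because dim probes cannot fall far, the same was read over the 10991 brighter probes, which exceed the floor on 3 arrays or more: 44.8% of those were lower and 17.5% higher, with a median of -0.28, and 20.8% of them had a difference below the genes' median. All 8 kinesins, all 3 of Ccna2, Ccnb2 and Cdk1, all 5 genes of the APC/C, securin and separase group, all 3 cytokinesis genes and Mybl2 fell. Of the 4 mitotic kinases 3 fell, of the passenger complex 3 of 4, of the spindle checkpoint 4 of 5, of the kinetochore 5 of 7, of the spindle proteins 6 of 7 and of the chromosome structure genes 5 of 6. The genes that did not pass were Hmmr (-0.44 ± 0.18), Incenp (-0.28 ± 0.15), Smc2 (-0.23 ± 0.11), Nek2 (-0.15 ± 0.13), Spc24 (0.06 ± 0.14), Ndc80 (0.12 ± 0.12) and Mad2l1 (0.15 ± 0.13). When the deposited values were quantile-normalized once more, 38 genes fell and 2 rose, Mad2l1 (0.43) and Ndc80 (0.39). The 8 calls lost there were Birc5, Cdca8, Bub3, Ttk, Espl1, Cdca3, Smc4 and Anln; leaving out single arrays lost no call but those of Birc5, Espl1 and Cdca8.

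With EHT-1864 fewer of the genes passed the test, and in both directions. Against hypoxia DMSO 8 genes fell, 4 rose and 41 did not pass. Of all probes 17.4% were lower and 13.0% higher (31.5% and 14.4% of the brighter probes). The median was -0.04, against 0.06 for all probes and -0.14 for the brighter probes. The genes that fell were Aurkb, Ccna2, Ccnb2, Cenpa, Nusap1, Pttg1, Ncaph and Prc1, and those that rose were Smc4, Ncapg, Cdca8 and Bub3. The split depended on the scaling: a second quantile normalization gave 5 lower and 11 higher, with a median of 0.08. It also depended on single arrays: 5 genes were lower without EHT-1864 array 3, hypoxia DMSO array 1 or hypoxia DMSO array 3, and 2 were higher without hypoxia DMSO array 3; without EHT-1864 array 3 the median was 0.05. Pttg1, Prc1, Ncaph, Cdca8 and Bub3 lost their call in at least 1 of these fits, and Aurkb, Ccna2, Ccnb2, Cenpa, Nusap1, Smc4 and Ncapg did not.

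BFA against EHT-1864 compared the 2 compounds directly, on arrays of the same 16 h in hypoxia with EHT-1864 at 1 µM and BFA at a dose that was not settled, so whether the doses match is not known. Of the 53 genes, 47 were lower with BFA (47 also at an unadjusted p under 0.05), 0 were higher by limma and 6 did not pass, against 19.6% of all probes lower and 16.9% higher (35.8% and 19.8% of the brighter probes). The median was -0.86, against 0.06 for all probes and -0.15 for the brighter probes. Those that did not pass were Birc5, Incenp, Espl1, Ndc80, Spc24 and Mad2l1, with differences between -0.27 and 0.19. The second quantile normalization gave 41 lower and 1 higher, Mad2l1 (0.35). The calls lost there were Nek2, Cdca3, Cenpa, Smc2, Ect2 and Anln. Leaving out single arrays lost calls of Nek2, Cenpa, Ckap2, Smc2, Ect2 and Anln.

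Hypoxia alone moved the genes by less, and mostly in 1 direction. Against normoxia, 50 of 53 differences were below 0, with a median of -0.36, against -0.03 for all probes, and 7.1% of all probes had a difference below that median. Only 4 genes passed the adjusted threshold, all lower: Nuf2, Mad2l1, Spc24 and Cdk1; 0.563% of all probes were lower and 2.11% higher (0.974% and 3.86% of the brighter probes). At an unadjusted p under 0.05 there were 35 genes. The count of 4 rested on single arrays: it was 0 without hypoxia DMSO array 1 or normoxia array 3, 1 without hypoxia DMSO array 2 or normoxia array 1, and 2 without hypoxia DMSO array 3, normoxia array 2, EHT-1864 array 1 or EHT-1864 array 3. It was 18 when the 10991 brighter probes alone were tested. Cdk1 and Spc24 lost their call without any 1 of the hypoxia DMSO or normoxia arrays. Mad2l1 lost its call without hypoxia DMSO array 1 or 2 or normoxia array 3. Nuf2 lost its call without hypoxia DMSO array 1 or normoxia array 1 or 3.

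The compounds in hypoxia were compared with normoxia as well, on the same normoxia arrays. With BFA 52 of 53 genes were lower, against 24.0% of all probes lower and 23.0% higher (44.1% and 19.5% of the brighter probes). The median was -1.28 (-1.23 with the 3 genes below the floor at their bounds), against 0.10 for all probes and -0.27 for the brighter probes. At least 2-fold lower were 34 genes, counted in the same way as above. Ndc80 did not pass, with -0.20 ± 0.12. With EHT-1864 25 genes were lower and 0 higher by limma (30 of the 53 at an unadjusted p under 0.05, in either direction). The background was 14.3% of all probes lower and 8.10% higher (26.6% and 11.9% of the brighter probes). The median was -0.40, against 0.04 for all probes and -0.11 for the brighter probes. Of all probes called with EHT-1864 against normoxia, 63.8% were lower, and 53.1% after the second quantile normalization, which gave 15 genes lower and 1 higher, Ncapg. Without normoxia array 1 the count of lower genes was 14, and without EHT-1864 array 1 it was 15.

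**Figure D3:**
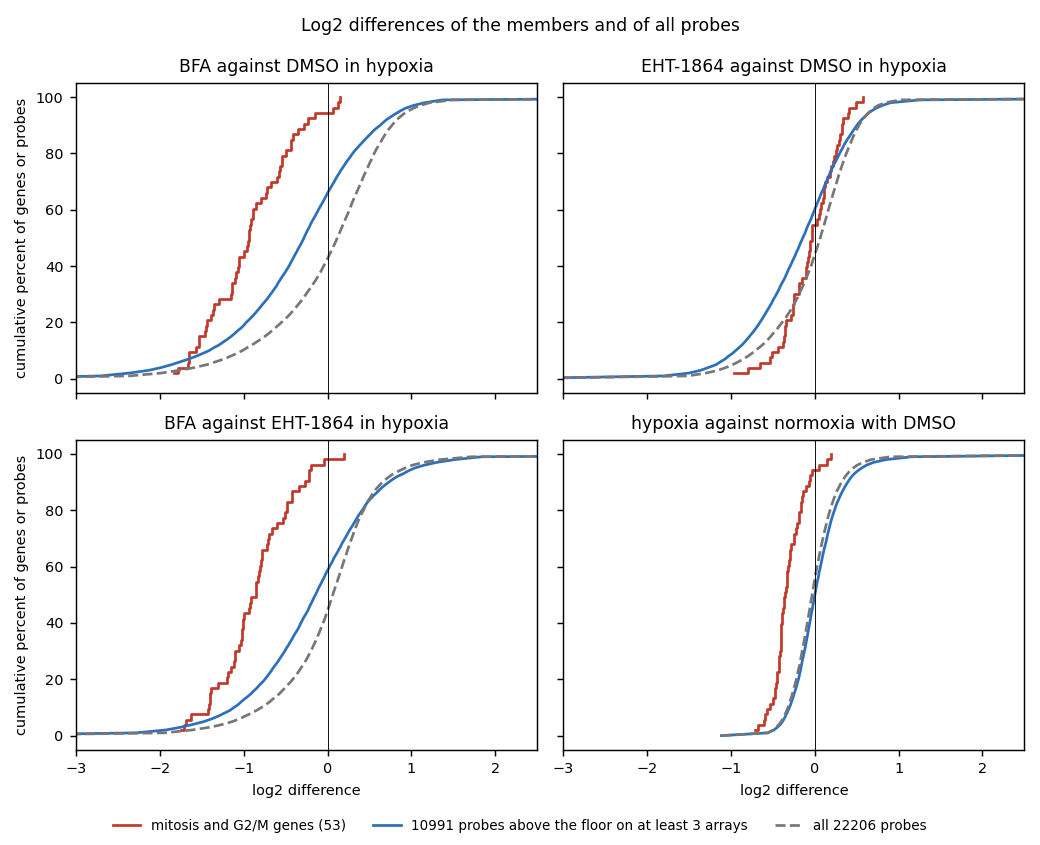
Cumulative percent of genes or probes (y) against the log2 difference (x) in 4 comparisons, for the 53 mitosis and G2/M genes (red), the 10991 probes that exceed the floor on 3 arrays or more (blue) and all 22206 probes (grey, dashed). At its median the red curve lies left of both others where BFA is compared with DMSO (-0.94) or with EHT-1864 (-0.86) and in hypoxia against normoxia (-0.36); in the lower tail of both BFA panels it crosses the other curves. For EHT-1864 against DMSO (median -0.04) it crosses both others.

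Among the cyclins and Cdk1, the ordering of the groups was plainest. Ccna2, the A-type cyclin of S phase and G2, measured 7.74, 8.05 and 8.05 on the BFA arrays, 8.94, 9.16 and 8.84 on the EHT-1864 arrays, 9.68, 9.86 and 9.79 on the hypoxia DMSO arrays and 10.30, 10.31 and 10.21 on the normoxia arrays. The 4 groups did not overlap, with BFA lowest and normoxia highest. With BFA Ccna2 fell by 1.83 ± 0.13, 3.56-fold lower than hypoxia DMSO (limma, adjusted p = 2.02e-07), the largest fitted difference of the 53 genes. Genes with BFA arrays below the floor have falls of uncertain size, so this rank holds for fitted values only. With EHT-1864 Ccna2 fell by 0.80 ± 0.13, 1.74-fold lower (adjusted p = 0.000599), and BFA was 2.05-fold below EHT-1864 (adjusted p = 3.47e-05). Against normoxia the hypoxia DMSO difference was -0.50 ± 0.13 and did not pass (adjusted p = 0.0649).

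Ccnb2, a B-type cyclin that activates Cdk1 and carries 2 CHR and 3 CCAAT matches in the window printed above, measured 7.57, 7.45 and 7.64 with BFA, 8.36, 8.30 and 8.32 with EHT-1864, 8.85, 9.06 and 9.06 with DMSO in hypoxia and 9.24, 9.08 and 9.11 in normoxia. Both compounds lay below hypoxia DMSO without overlap, BFA lower than EHT-1864. It fell by 1.44 ± 0.11 with BFA (limma, 2.71-fold, adjusted p = 5.00e-07) and by 0.66 ± 0.11 with EHT-1864 (1.58-fold, adjusted p = 0.000815), and differed by -0.15 ± 0.11 between hypoxia and normoxia, which did not pass. Cdk1, the kinase itself, measured 8.03, 8.48 and 8.11 with BFA, 8.95, 9.16 and 8.96 with EHT-1864, 9.33, 9.24 and 9.26 with DMSO in hypoxia and 9.88, 9.87 and 9.77 in normoxia. Again no groups overlapped. Cdk1 fell with BFA by 1.07 ± 0.13 (adjusted p = 2.60e-05), while its EHT-1864 difference of -0.25 ± 0.13 did not pass (adjusted p = 0.167). In hypoxia DMSO against normoxia it fell by 0.57 ± 0.13 (adjusted p = 0.0393). That call was lost without any 1 of the hypoxia DMSO or normoxia arrays.

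**Figure D4:**
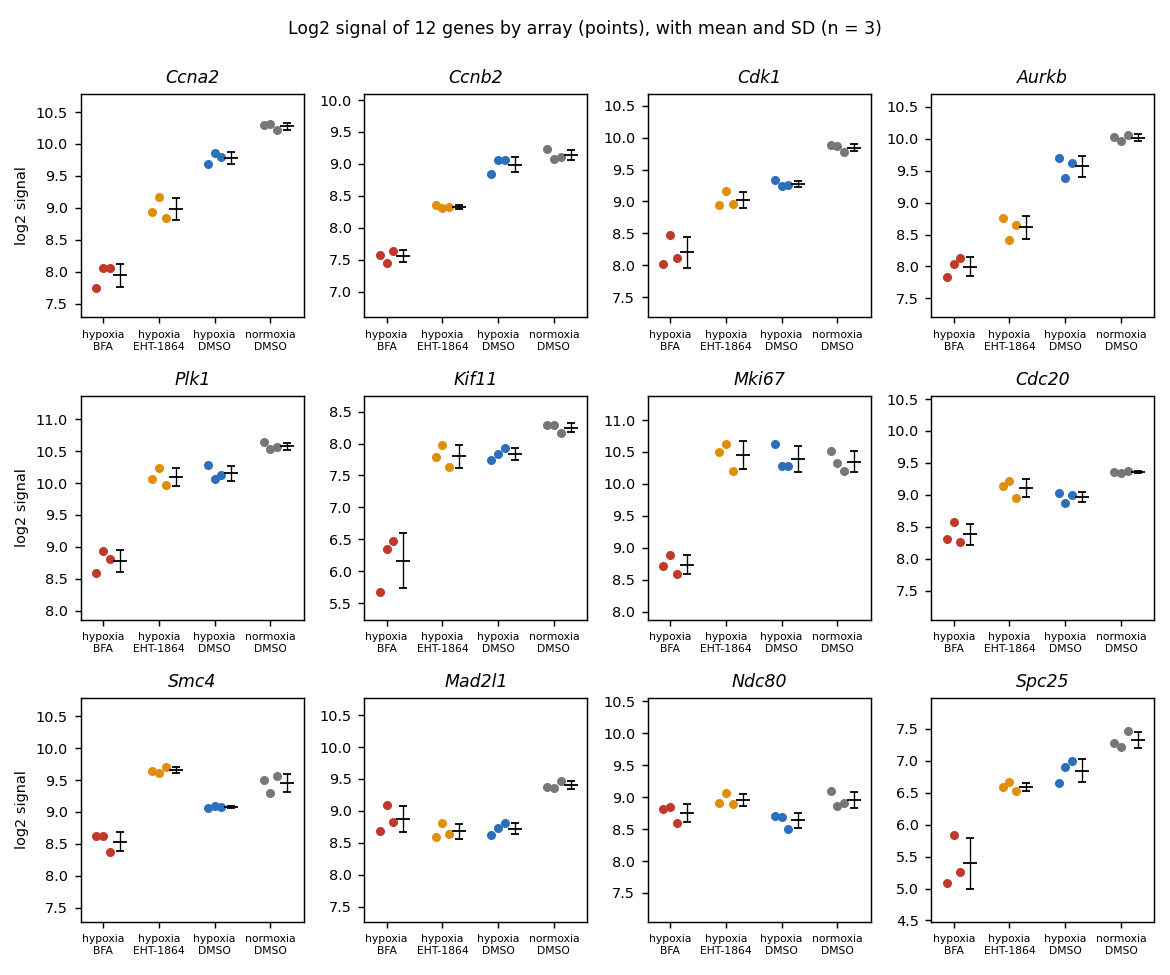
Log2 signal (y) of 12 genes on each array (points) with the mean and SD of each group (n = 3), in the order hypoxia BFA, hypoxia EHT-1864, hypoxia DMSO and normoxia DMSO; every panel spans the same range of log2 units. Ccna2, Ccnb2 and Aurkb are lowest with BFA and next lowest with EHT-1864, Plk1, Kif11, Mki67 and Spc25 are low with BFA while EHT-1864 overlaps hypoxia DMSO, and Mad2l1 and Ndc80 stay within 1 log2 unit across all arrays.

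Of the mitotic kinases, Plk1, which drives mitotic entry and centrosome maturation, measured 8.59, 8.93 and 8.81 with BFA, 10.07, 10.24 and 9.96 with EHT-1864, 10.28, 10.06 and 10.12 with DMSO in hypoxia and 10.63, 10.54 and 10.56 in normoxia. The BFA arrays stood apart from all others, and EHT-1864 overlapped hypoxia DMSO. Plk1 fell by 1.37 ± 0.13 with BFA (limma, 2.59-fold, adjusted p = 2.21e-06) and differed by -0.06 ± 0.13 with EHT-1864 (adjusted p = 0.760). Aurka, the Aurora kinase of centrosomes and spindle poles, measured 7.84, 7.65 and 7.82 with BFA, 8.77, 8.89 and 8.68 with EHT-1864, 8.66, 8.75 and 8.57 with DMSO in hypoxia and 9.22, 8.91 and 9.14 in normoxia. It had the same pattern, lower with BFA by 1.85-fold (-0.89 ± 0.12, adjusted p = 7.44e-05), with EHT-1864 overlapping DMSO (0.12 ± 0.12). Melk, a kinase expressed in dividing cells, fell with BFA (-1.06 ± 0.13) with 2 of its 3 BFA arrays above the floor. Nek2, a centrosomal kinase, did not pass with BFA against hypoxia DMSO and was lower than with EHT-1864 (-0.42 ± 0.13, adjusted p = 0.0222). That call was lost after a second quantile normalization (-0.27, limma, adjusted p = 0.131) and without BFA array 3 or EHT-1864 array 1 or 2.

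The 4 genes of the chromosomal passenger complex, which corrects faulty attachments and later directs cytokinesis, did not share 1 response. Aurkb, its kinase, measured 7.83, 8.03 and 8.13 with BFA, 8.76, 8.42 and 8.66 with EHT-1864, 9.70, 9.39 and 9.62 with DMSO in hypoxia and 10.04, 9.96 and 10.06 in normoxia. The 4 groups did not overlap. It fell by 1.57 ± 0.13 with BFA (limma, 2.97-fold, adjusted p = 1.08e-06) and by 0.96 ± 0.13 with EHT-1864 (1.94-fold, adjusted p = 0.000213), the largest EHT-1864 difference of the 53. Birc5 (survivin), which holds the complex to chromatin, measured 8.42, 8.33 and 8.02 with BFA, 8.48, 8.64 and 8.48 with EHT-1864, 8.69, 8.47 and 8.71 with DMSO in hypoxia and 9.15, 9.00 and 8.87 in normoxia. The BFA arrays lay below the DMSO arrays by a narrow margin. Birc5 fell by 0.36 ± 0.14 with BFA (adjusted p = 0.0411) and differed by -0.09 ± 0.14 with EHT-1864. Its BFA call was lost after a second quantile normalization (-0.09, limma, adjusted p = 0.655) and after subtraction of array medians (-0.29, adjusted p = 0.1). It was also lost without any of several single arrays, BFA array 3 and hypoxia DMSO arrays 1 and 3 among them.

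Cdca8 (borealin), the partner of survivin, measured 7.80, 7.65 and 7.63 with BFA, 8.51, 8.88 and 8.42 with EHT-1864, 8.27, 8.35 and 7.96 with DMSO in hypoxia and 8.62, 8.52 and 8.48 in normoxia. In the full fit it moved opposite ways under the compounds. It fell by 0.50 ± 0.15 with BFA (limma, adjusted p = 0.0120) and rose by 0.41 ± 0.15 with EHT-1864 (adjusted p = 0.0495). Both calls depended on the fit. After a second quantile normalization the BFA difference was -0.18 (limma, adjusted p = 0.373), and the BFA call was also lost without hypoxia DMSO array 2. The EHT-1864 call was lost with only the 6 arrays compared, and without any of several single arrays, EHT-1864 arrays 1 and 2 among them. The difference between the compounds was -0.91 ± 0.15 (adjusted p = 0.000270). Incenp, the scaffold, differed by -0.28 ± 0.15 with BFA and -0.07 ± 0.15 with EHT-1864 and did not pass in either.

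In the spindle checkpoint, Mad2l1 (Mad2), which binds and restrains Cdc20, was the exception. It measured 8.69, 9.09 and 8.82 with BFA, 8.59, 8.81 and 8.64 with EHT-1864, 8.63, 8.73 and 8.80 with DMSO in hypoxia and 9.38, 9.35 and 9.47 in normoxia. The 3 hypoxia groups overlapped each other and all lay below normoxia. Hypoxia DMSO was lower than normoxia by 1.60-fold (-0.68 ± 0.13, limma, adjusted p = 0.0122). That call was lost without hypoxia DMSO array 1 or 2 or normoxia array 3. Neither BFA (0.15 ± 0.13) nor EHT-1864 (-0.04 ± 0.13) differed past the threshold from hypoxia DMSO. A second quantile normalization put Mad2l1 0.43 higher with BFA (adjusted p = 0.0121). Bub1b (BubR1), which joins Mad2 in the inhibitor of Cdc20, measured 6.67, 7.19 and 6.80 with BFA, 7.46, 7.90 and 7.73 with EHT-1864, 7.90, 7.78 and 7.65 with DMSO in hypoxia and 8.15, 7.93 and 8.15 in normoxia. It dropped below the other groups with BFA alone, by 0.89 ± 0.16 against hypoxia DMSO (adjusted p = 0.000528).

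Bub3, which brings the Bub kinases to kinetochores, measured 10.45, 10.53 and 10.59 with BFA, 11.32, 11.43 and 11.32 with EHT-1864, 11.01, 10.96 and 10.90 with DMSO in hypoxia and 11.17, 11.16 and 11.11 in normoxia. No groups overlapped, with EHT-1864 highest and BFA lowest. It fell by 0.44 ± 0.10 with BFA (limma, adjusted p = 0.00385) and rose by 0.40 ± 0.10 with EHT-1864 (adjusted p = 0.0119), and the compounds differed by -0.83 ± 0.10 (adjusted p = 3.45e-05). Bub1 and Ttk (Mps1), the 2 checkpoint kinases that start the signal, fell with BFA by 1.06 ± 0.14 and 0.57 ± 0.13. With EHT-1864 they differed by 0.33 ± 0.14 and 0.29 ± 0.13 and did not pass.

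The genes around the APC/C fell with BFA as a group, from 0.41 to 1.30 in log2 size. Cdc20, its activator in mitosis, measured 8.30, 8.57 and 8.27 with BFA, 9.14, 9.22 and 8.95 with EHT-1864, 9.02, 8.87 and 9.00 with DMSO in hypoxia and 9.36, 9.35 and 9.38 in normoxia. The BFA arrays lay below all the rest, while EHT-1864 overlapped hypoxia DMSO. Cdc20 was 1.50-fold lower with BFA than with DMSO (-0.58 ± 0.12; limma, adjusted p = 0.00167), and Mad2l1, its inhibitor, was not (0.15 ± 0.13). Ube2c, the ubiquitin-conjugating enzyme of the complex, measured 9.90, 9.73 and 9.90 with BFA, 10.91, 10.86 and 10.79 with EHT-1864, 10.72, 10.79 and 10.84 with DMSO in hypoxia and 11.03, 11.12 and 11.07 in normoxia. It was 1.92-fold lower with BFA (-0.94 ± 0.11, adjusted p = 1.28e-05) and 2.01-fold lower than with EHT-1864 (adjusted p = 8.29e-06).

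Pttg1 (securin), the guard of separase, fell by 1.30 ± 0.13 with BFA (limma, adjusted p = 4.42e-06) and by 0.44 ± 0.13 with EHT-1864 (adjusted p = 0.0228), and differed by -0.04 ± 0.13 between hypoxia and normoxia. Espl1 (separase), the protease that cuts cohesin at anaphase, measured 6.40, 6.40 and 6.51 with BFA, 6.63, 6.41 and 6.93 with EHT-1864, 6.91, 6.80 and 6.83 with DMSO in hypoxia and 7.00, 7.13 and 7.04 in normoxia. These values are close to the floor of the BFA arrays, and 2 of 3 were above it. Espl1 fell by 0.41 ± 0.13 with BFA (adjusted p = 0.0216). Cdca3, an F-box-like protein that helps mitotic entry, fell by 0.54 ± 0.12 with BFA.

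At the centromere, Cenpa, the histone variant that marks it, measured 8.56, 8.92 and 8.58 with BFA, 9.10, 9.21 and 9.00 with EHT-1864, 9.70, 9.58 and 9.64 with DMSO in hypoxia and 9.73, 9.76 and 9.65 in normoxia. Hypoxia DMSO overlapped normoxia, and the compounds lay below both. It fell by 0.95 ± 0.12 with BFA (limma, adjusted p = 4.29e-05) and by 0.54 ± 0.12 with EHT-1864 (adjusted p = 0.00604). Cenpf, a large protein of the outer kinetochore, measured 5.63, 6.75 and 6.55 with BFA, 7.34, 7.47 and 6.95 with EHT-1864, 7.58, 7.28 and 7.06 with DMSO in hypoxia and 7.25, 7.12 and 6.98 in normoxia. BFA array 1 was far below the other 2, and Cenpf has the widest standard error of the 53, 0.25. It fell with BFA by 1.00 ± 0.25 (adjusted p = 0.00531), with 2 of 3 BFA arrays above the floor. Cenpe, a kinetochore motor, fell by 1.15 ± 0.18 with BFA.

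The 4 subunits of the NDC80 complex, which holds microtubules at the kinetochore, did not all pass with BFA, and 2 of them lie too near the floor to be read closely. Spc25 measured 5.09, 5.84 and 5.26 with BFA, 6.58, 6.66 and 6.53 with EHT-1864, 6.65, 6.90 and 7.00 with DMSO in hypoxia and 7.28, 7.22 and 7.47 in normoxia. No BFA value was above the floor, so BFA gives a bound only: Spc25 was at least 1.28-fold lower than with hypoxia DMSO (limma, adjusted p = 2.29e-05; means 5.40 with BFA and 6.85 with DMSO), where a bound is the brighter mean against the higher of floor and signal. Nuf2 measured 7.27, 7.53 and 7.33 with BFA, 8.10, 8.47 and 8.35 with EHT-1864, 7.92, 8.21 and 8.22 with DMSO in hypoxia and 8.88, 8.74 and 8.87 in normoxia. Hypoxia DMSO was below normoxia by 0.71 ± 0.14 (adjusted p = 0.0137), the largest such difference of the 53. That call was lost without hypoxia DMSO array 1 or normoxia array 1 or 3. BFA was below hypoxia DMSO by 0.74 ± 0.14 (adjusted p = 0.000651).

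Ndc80 (Hec1), the partner of Nuf2, measured 8.82, 8.85 and 8.59 with BFA, 8.90, 9.06 and 8.90 with EHT-1864, 8.70, 8.70 and 8.51 with DMSO in hypoxia and 9.10, 8.86 and 8.90 in normoxia. BFA overlapped hypoxia DMSO, with a difference of 0.12 ± 0.12 (limma, adjusted p = 0.447, and 0.39 with an adjusted p of 0.0207 after a second quantile normalization). Spc24, the partner of Spc25, measured 6.50, 6.45 and 6.05 with BFA, 6.36, 6.48 and 6.27 with EHT-1864, 6.37, 6.09 and 6.35 with DMSO in hypoxia and 6.91, 6.75 and 6.97 in normoxia. The 3 hypoxia groups overlapped and lay below normoxia, hypoxia DMSO by 0.61 ± 0.14 (adjusted p = 0.0409). Spc24 lost that call without any 1 of the hypoxia DMSO or normoxia arrays. With BFA 1 of its 3 arrays was above the floor, and the hypoxia DMSO mean of 6.27 lies below the mean BFA floor of 6.49, so a fall with BFA could not have been seen; the fitted difference was 0.06 ± 0.14.

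The kinesins fell together with BFA, all 8 of them, with a median of -1.25, and 6 at least 2-fold. With EHT-1864 none of the 8 passed (median -0.08; 2 had an unadjusted p under 0.05 by limma, and 2 rose after a second quantile normalization, Kif15 by 0.49 and Kif18a by 0.46). Kif11 (Eg5), which pushes the spindle poles apart, measured 5.67, 6.35 and 6.48 with BFA, 7.79, 7.98 and 7.63 with EHT-1864, 7.74, 7.83 and 7.93 with DMSO in hypoxia and 8.29, 8.29 and 8.17 in normoxia. EHT-1864 and hypoxia DMSO overlapped, and 1 BFA array was above the floor. Kif11 fell by 1.67 ± 0.18 with BFA (limma, 3.18-fold, adjusted p = 9.55e-06). Kif2c (MCAK), which takes microtubules apart at centromeres, measured 6.30, 6.81 and 6.48 with BFA, 7.82, 7.98 and 8.09 with EHT-1864, 8.41, 8.24 and 8.32 with DMSO in hypoxia and 8.57, 8.47 and 8.35 in normoxia. It fell by 1.79 ± 0.14 with BFA (3.46-fold, adjusted p = 5.85e-07), with 2 BFA arrays above the floor, and its EHT-1864 difference was -0.36 ± 0.14 (adjusted p = 0.0729).

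Kif15, a motor that can stand in for Kif11 in human cells, measured 5.94, 6.30 and 5.88 with BFA, 7.74, 8.0 and 7.65 with EHT-1864, 7.63, 7.39 and 7.49 with DMSO in hypoxia and 7.96, 8.01 and 8.14 in normoxia. All BFA values were below the floor. Kif15 was at least 2.01-fold lower with BFA than with hypoxia DMSO (limma, adjusted p = 3.80e-06; means 6.04 with BFA and 7.50 with DMSO) and at least 2.47-fold lower than with EHT-1864 (adjusted p = 9.98e-07; means 6.04 with BFA and 7.80 with EHT-1864). Kif20a (MKLP2), a motor of the central spindle, measured 7.54, 7.97 and 8.05 with BFA, 8.84, 8.99 and 8.71 with EHT-1864, 9.03, 8.80 and 9.05 with DMSO in hypoxia and 9.44, 9.27 and 9.34 in normoxia. It was 2.16-fold lower with BFA (-1.11 ± 0.15, adjusted p = 5.21e-05). The other central spindle and chromosome motors fell as well, Kif23 by 1.39 ± 0.11, Kif4 by 1.09 ± 0.18, Kif20b by 0.96 ± 0.14 and Kif18a by 0.80 ± 0.16; Kif4 and Kif18a had 1 of 3 BFA arrays above the floor, so the size of their fall is uncertain.

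Of the 7 spindle and microtubule proteins, 6 fell with BFA. Nusap1, which bundles spindle microtubules, fell by 1.53 ± 0.10 (limma, 2.89-fold, adjusted p = 1.51e-07) and with EHT-1864 by 0.51 ± 0.10 (adjusted p = 0.00287). Prc1, the bundler of the central spindle, fell by 1.14 ± 0.11 with BFA and by 0.35 ± 0.11 with EHT-1864 (adjusted p = 0.0299). Aspm, Dlgap5, Ckap2 and Tpx2 fell with BFA by 1.14 ± 0.20, 0.94 ± 0.14, 0.86 ± 0.14 and 0.60 ± 0.12, and their EHT-1864 differences did not pass; Aspm had 1 of 3 BFA arrays above the floor. Hmmr did not pass with BFA against hypoxia DMSO (adjusted p = 0.0624), where BFA array 2, at 8.54, lay within the range of the DMSO arrays.

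Among the chromosome structure genes, Top2a and Mki67 passed the test in comparisons with BFA alone. Top2a, the topoisomerase that untangles sister DNA, measured 8.28, 8.04 and 7.94 with BFA, 9.55, 9.65 and 9.32 with EHT-1864, 9.53, 9.44 and 9.38 with DMSO in hypoxia and 9.57, 9.42 and 9.55 in normoxia. It fell by 1.36 ± 0.13 with BFA (limma, 2.57-fold, adjusted p = 2.74e-06), and the other 3 groups overlapped. Mki67 (Ki-67), the coat protein of mitotic chromosomes and a standard proliferation marker, measured 8.72, 8.89 and 8.59 with BFA, 10.51, 10.63 and 10.20 with EHT-1864, 10.63, 10.28 and 10.28 with DMSO in hypoxia and 10.52, 10.32 and 10.21 in normoxia. Here too the BFA arrays were low and the other groups overlapped. Mki67 fell by 1.66 ± 0.15 with BFA (3.16-fold, adjusted p = 2.16e-06), and its differences were 0.05 ± 0.15 with EHT-1864 and 0.05 ± 0.15 in hypoxia against normoxia, with a 95% interval of -0.29 to 0.38 for the hypoxia difference.

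Condensin, which compacts chromosomes, had subunits called in different directions with EHT-1864 in the full fit. The lower call, that of Ncaph, was lost after a second quantile normalization (-0.18, limma, adjusted p = 0.304). It was also lost without EHT-1864 array 3 or any 1 of the hypoxia DMSO arrays. Ncaph measured 6.35, 6.32 and 6.14 with BFA, 7.42, 7.54 and 7.27 with EHT-1864, 7.80, 7.81 and 7.78 with DMSO in hypoxia and 8.14, 8.22 and 8.22 in normoxia. No BFA array was above the floor, which bounds it at at least 2.47-fold lower than with hypoxia DMSO (limma, adjusted p = 3.17e-07; means 6.27 with BFA and 7.80 with DMSO), and it fell by 0.38 ± 0.11 with EHT-1864 (adjusted p = 0.0224). Smc4, an ATPase arm of condensin, measured 8.62, 8.62 and 8.37 with BFA, 9.65, 9.60 and 9.70 with EHT-1864, 9.06, 9.09 and 9.08 with DMSO in hypoxia and 9.50, 9.29 and 9.56 in normoxia. It fell by 0.54 ± 0.12 with BFA (adjusted p = 0.00216) and rose by 0.58 ± 0.12 with EHT-1864 (adjusted p = 0.00286), where all arrays were above those with DMSO. Its BFA call was lost after a second quantile normalization (-0.28, limma, adjusted p = 0.0776).

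Ncapg, a regulatory subunit of the same complex, measured 6.64, 6.69 and 6.66 with BFA, 8.0, 8.08 and 8.15 with EHT-1864, 7.56, 7.58 and 7.62 with DMSO in hypoxia and 7.99, 7.58 and 7.89 in normoxia. It fell by 0.92 ± 0.12 with BFA (limma, adjusted p = 4.78e-05), with 2 BFA arrays above the floor, and rose by 0.49 ± 0.12 with EHT-1864 (adjusted p = 0.00917). Smc2, the other ATPase arm, measured 7.62, 7.83 and 7.67 with BFA, 8.11, 8.04 and 8.0 with EHT-1864, 7.86, 7.92 and 8.04 with DMSO in hypoxia and 8.24, 8.29 and 8.37 in normoxia. The BFA arrays lay below the DMSO arrays, by -0.23 ± 0.11, and did not pass (adjusted p = 0.0966). Against EHT-1864 the BFA arrays were lower in all 4 genes, by 0.34 ± 0.11 for Smc2 (adjusted p = 0.0283), 1.12 ± 0.12 for Smc4 and 1.41 ± 0.12 for Ncapg, with Ncaph at least 1.89-fold lower. The Smc2 call was lost after a second quantile normalization (-0.18, limma, adjusted p = 0.2). It was also lost without BFA array 1 or 3 or EHT-1864 array 1 or 2.

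The cytokinesis genes Racgap1, Anln and Ect2, which set up the contractile ring through RhoA, fell with BFA by 0.93 ± 0.14, 0.72 ± 0.16 and 0.68 ± 0.16, Anln with 1 of 3 BFA arrays above the floor, and their EHT-1864 differences (0.18 ± 0.14, -0.25 ± 0.16 and -0.15 ± 0.16) did not pass. Mybl2 (B-Myb), the transcription factor of the group, measured 6.17, 6.45 and 6.84 with BFA, 8.11, 8.29 and 8.12 with EHT-1864, 8.21, 8.15 and 8.07 with DMSO in hypoxia and 8.91, 8.71 and 8.57 in normoxia. EHT-1864 overlapped hypoxia DMSO, normoxia was highest and BFA lowest, with 2 BFA arrays above the floor. It fell by 1.66 ± 0.16 with BFA (limma, 3.15-fold, adjusted p = 3.23e-06) and was 4.73-fold lower with BFA than in normoxia (adjusted p = 1.92e-07); its hypoxia difference was -0.59 ± 0.16 (adjusted p = 0.0783).

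**Figure D5:**
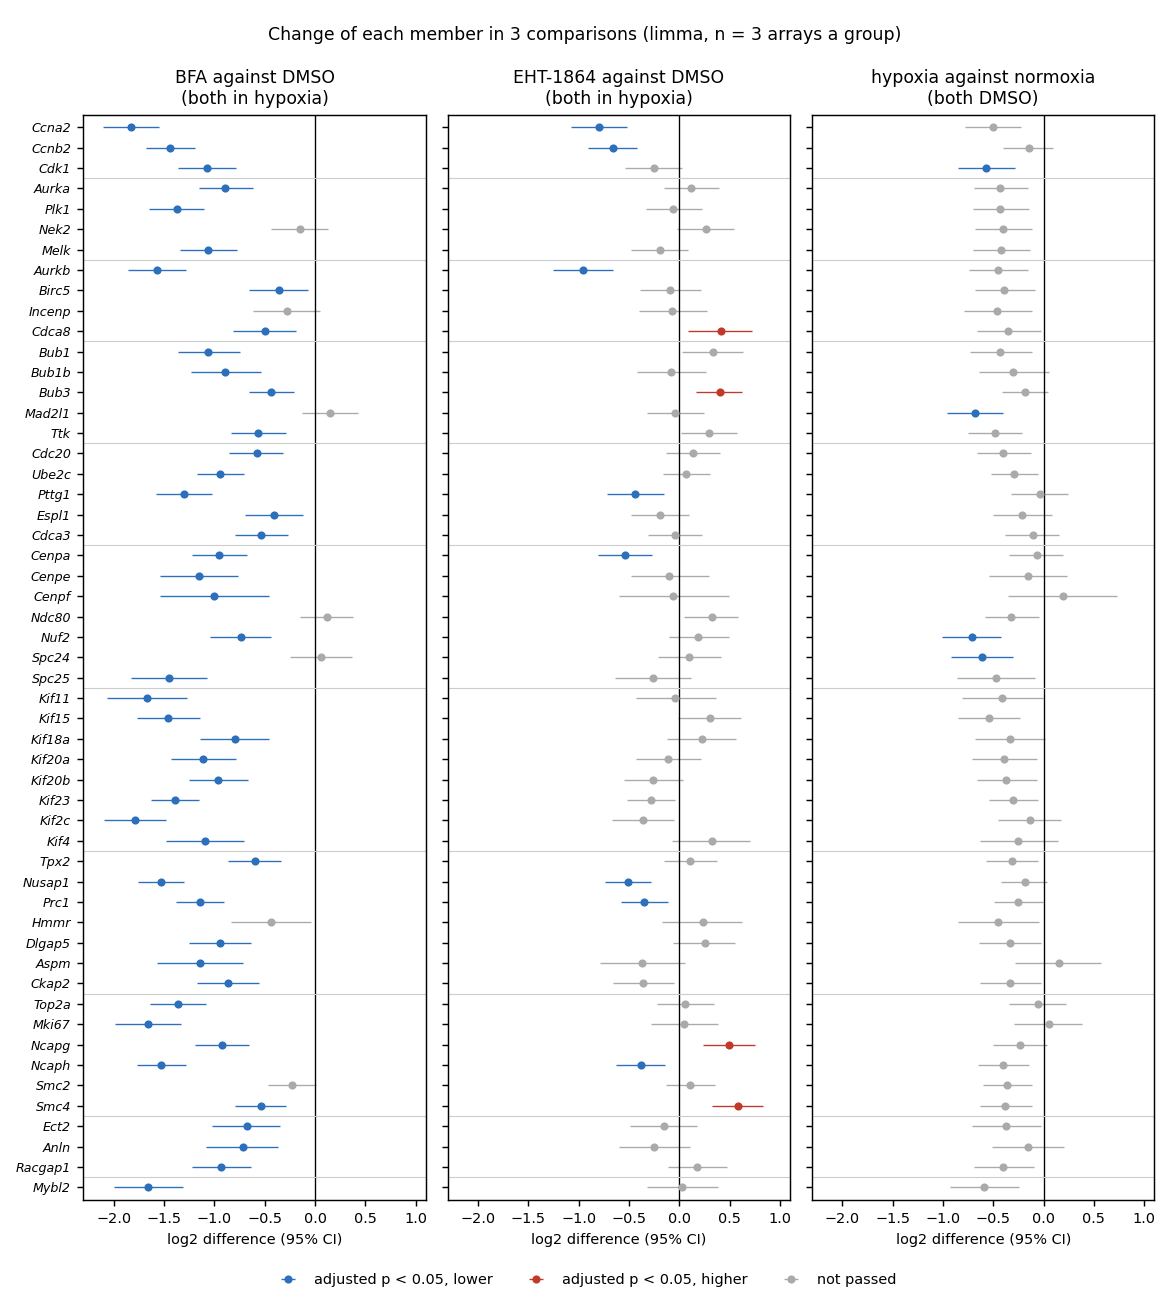
Log2 difference of each of the 53 genes with its 95% confidence interval (limma, n = 3 arrays a group) for BFA against DMSO in hypoxia, EHT-1864 against DMSO in hypoxia, and hypoxia against normoxia with DMSO; blue is lower and red higher at an adjusted p under 0.05, grey did not pass. Blue points number 46, 8 and 4 in the 3 panels and red points 0, 4 and 0. The 3 genes below the floor with BFA (Spc25, Kif15 and Ncaph) are drawn at their fitted values, which are not bounds.

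Median differences were set beside each other for genes with and without a CHR near the start. With BFA against DMSO the median was -0.94 over the 31 genes with a CHR within 50 bases of the start and -1.10 over the 14 with a window and no such match. With EHT-1864 the median was -0.04 with such a CHR and -0.10 without, and in hypoxia against normoxia -0.32 with it and -0.36 without. BFA against EHT-1864 gave -0.83 with it and -0.98 without, BFA against normoxia -1.19 with it and -1.40 without, and EHT-1864 against normoxia -0.25 with it and -0.51 without. These are descriptions and were not tested.

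A further list of 75 G2/M genes outside the 55, of which 72 were measured, was followed beside them. With BFA against DMSO 43 fell and 7 rose (59.7% and 9.7% of the list, against 24.6% and 26.1% of all probes and 44.8% and 17.5% of the brighter probes), with a median of -0.55 (-0.47 with 11 genes below the floor at their bounds). By fitted value Depdc1b, Esco2 and Pimreg had the largest negative differences, but none was above the floor on a BFA array, so only bounds can be given: Depdc1b was at least 2.45-fold and Pimreg at least 1.87-fold lower (limma, adjusted p = 5.54e-05 and 1.47e-07), and for Esco2, a cohesin acetyltransferase, the bound was 1.01-fold, which sets no size. Bora, an activator of Aurora A, rose by 1.27 ± 0.12 (adjusted p = 2.47e-06), and the kinetochore genes Cenpw and Cenpp rose by 0.74 ± 0.17 and 0.71 ± 0.15. With EHT-1864 24 fell and 8 rose, 33.3% and 11.1% of the list, against 31.5% and 14.4% of the brighter probes, with a median of -0.09, against -0.14 for the brighter probes; the shares lower and higher are near those of the brighter probes. G2e3 fell by 1.55 ± 0.15, the phosphatase Cdc25a by 1.20 ± 0.20 and Cenpi by 1.17 ± 0.22, with 1, 2 and 2 of their 3 EHT-1864 arrays above the floor, while Cenpq, Cenpn and Zwilch rose by 0.67 ± 0.13, 0.60 ± 0.11 and 0.59 ± 0.13. In hypoxia DMSO against normoxia 4 fell and 0 rose by limma (37 of the 72 at an unadjusted p under 0.05, in either direction). That is 5.6% and 0.0% of the list, against 0.563% and 2.11% of all probes (0.974% and 3.86% of the brighter probes). Cenpn (-0.66 ± 0.11), Esco2 (-0.66 ± 0.14) and Shcbp1 (-0.61 ± 0.11) fell the most.

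The regulators that turn these promoters on and off, 11 genes of the DREAM and MuvB complexes, gave calls in both directions with BFA. There 6 fell and 3 rose (54.5% and 27.3%, against 44.8% and 17.5% of the brighter probes), with a median of -0.33 (-0.16 with 2 genes below the floor at their bounds). Rbl1 (p107), a pocket protein of DREAM, was at least 2.58-fold lower (limma, adjusted p = 4.19e-07), and Lin9 (2 of 3 BFA arrays above the floor) and Tfdp2 fell by 0.83 ± 0.12 and 0.76 ± 0.13. The MuvB subunits Lin52, Lin37 and Lin54, the last of which contacts the CHR, rose by 0.83 ± 0.18, 0.74 ± 0.15 and 0.54 ± 0.11. With EHT-1864 2 of the 11 fell and 2 rose, 18.2% each. The background was 31.5% of the brighter probes lower and 14.4% higher (17.4% and 13.0% of all probes). The share that fell was near that of all probes and below that of the brighter probes. Rbl2 (p130) fell by 1.22 ± 0.14 and Tfdp1, the E2F partner, by 0.79 ± 0.11, and Lin37 and Lin54 rose by 0.74 ± 0.15 and 0.45 ± 0.11. In hypoxia against normoxia none of the 11 passed by limma, and 4 had an unadjusted p under 0.05.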

How the data were processed

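Clarion S arrays were hybridized with RNA of 4 groups, 3 arrays each, grouped by the titles in the labels. The authors deposited log2 values made with Affymetrix Expression Console by RMA, per the submitters' processing notes; the software version, the settings and the build are not given in the sources used here. RMA corrects background, brings the distributions of the arrays together and gives 1 value per transcript cluster, so the values do not show how much RNA a cell held. Of 28846 rows, 6640 controls (5222 of them negative controls, used for the floor) were left out, and 22206 transcript clusters were tested, 19572 of them with 1 gene symbol from the platform annotation. Depth has no equivalent here; signal over the floor and the number of arrays limit the precision.

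All 12 arrays were fitted together with limma 3.58.1 in R 4.3.3 (lmFit and eBayes, residual df 8, prior df 4.87), with Benjamini-Hochberg adjustment over all probes, and the script was tested on simulated data. Comparisons of both compounds with DMSO share the hypoxia DMSO arrays, so their results are not independent. The members and the gene lists were chosen with earlier results of these data known. Array values were printed for a fixed set of genes, for the 3 largest falls and rises among called genes without overlap in each comparison, for genes under the floor throughout a group, and for exceptions of at most 5; of further lists, up to 3 genes per direction. For some comparisons with normoxia or between the compounds the genes of the further lists were not printed. The bound of a gene below the floor sets the brighter group's mean against the mean of the higher of floor and signal. Promoters came from RefSeq (GRCm38.p6). The alternatives were a second quantile normalization, subtraction of array medians, 2 filters on dim probes (3 or more arrays past the floor, or 3 or more with log2 of 6 and over), a variance model with trend and robust settings, a fit of the 6 arrays compared, the array number as a block, and leaving out each array. Trp53 was not analysed here.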

Additional observations from a re-analysis of the deposited data

How the results depend on the processing

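Leaving out single arrays gave between 0 and 6 genes lower in hypoxia DMSO against normoxia (4 in the full fit), 44 to 48 lower with BFA against hypoxia DMSO (46), 5 to 9 lower and 2 to 4 higher with EHT-1864 against hypoxia DMSO (8 and 4), 42 to 47 lower with BFA against EHT-1864 (47), 51 to 52 lower with BFA against normoxia (52) and 14 to 26 lower with EHT-1864 against normoxia (25). The EHT-1864 median against hypoxia DMSO ran from -0.11 to 0.05 over these. The count of 4 in hypoxia became 18 with either filter on dim probes, where fewer probes were tested, 16 with a trended and robust variance and 14 with the 6 arrays alone. The second quantile normalization gave 2 genes higher with BFA against hypoxia DMSO, 1 against EHT-1864, 5 lower and 11 higher with EHT-1864 against hypoxia DMSO, and 15 lower and 1 higher with EHT-1864 against normoxia; medians moved to -0.69, -0.73 and -0.99 for BFA against hypoxia DMSO, EHT-1864 and normoxia, and to 0.08 and -0.24 for EHT-1864 against hypoxia DMSO and normoxia. Median subtraction turned the EHT-1864 median against hypoxia DMSO to 0.01. With either dim-probe filter 7 genes were higher with EHT-1864 against hypoxia DMSO, and a trended and robust variance put 1 higher against normoxia. The cause was not tested. Each member had 1 transcript cluster, so the mean over clusters was not run.

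Arrays with the same number did not deviate together (correlations from -0.18 to 0.17), so the numbers were not taken as pairs. With the array number as a replicate block 2 genes were lower in hypoxia against normoxia, 46 lower with BFA and 7 with EHT-1864 against hypoxia DMSO, 47 with BFA against EHT-1864, 52 with BFA and 24 with EHT-1864 against normoxia, and 4 were higher with EHT-1864 against hypoxia DMSO. On BFA arrays 15 of the 53 genes were below the floor at least once, which limits the size of their falls.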

Other observations

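Core subunits of the APC/C and the cohesin ring were followed beside the mitosis genes. Of 15 APC/C genes, 5 fell and 1 rose with BFA against hypoxia DMSO, 33.3% and 6.7%, against 44.8% and 17.5% of the brighter probes, and the median was -0.25, against -0.28 for those probes, with the catalytic subunit Anapc11 falling by 0.62 ± 0.10 and the cullin-like Anapc2 rising by 0.54 ± 0.13 (limma, adjusted p = 0.000324 and 0.00313). With EHT-1864 2 of the 15 fell and 0 rose by limma (5 had an unadjusted p under 0.05). The background was 31.5% of the brighter probes lower and 14.4% higher (17.4% and 13.0% of all probes). The share of APC/C genes that fell was below both background shares. Fzr1 (Cdh1), the activator of late mitosis and G1, fell by 0.90 ± 0.13 and Cdc26 by 0.47 ± 0.13. Of 10 cohesin genes, 5 fell and 0 rose with BFA by limma, 50.0% lower, near the 44.8% of the brighter probes, and the median of -0.26 was near their -0.28; Pds5b fell by 1.14 ± 0.13, Stag2 by 0.70 ± 0.13 and Smc3 by 0.47 ± 0.13. With EHT-1864 only Smc1a of the 10 passed, rising by 0.59 ± 0.11. The cohesin shares lower and higher were thus below the EHT-1864 background shares given above. In hypoxia against normoxia no gene of either list passed by limma, and at an unadjusted p under 0.05 there were 1 APC/C gene and 0 cohesin genes.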
